A study of Homo sapiens with 6 samples.

Results

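The genes described here are 10 members of the stress-induced part of the unfolded protein response: the bZIP transcription factors ATF4, ATF3, DDIT3 (CHOP), CEBPB, CEBPD and CEBPG, and the effectors TRIB3, PPP1R15A (GADD34), DDIT4 (REDD1) and NUPR1. A bZIP factor binds DNA as a dimer through a basic region joined to a leucine zipper. The members were the probe sets whose single gene symbol is one of these names, which gave 12 probe sets for 10 of the 11963 genes on the array. CEBPD and PPP1R15A had 2 probe sets each and the others 1. The series compared U87dn cells, a clone of the human glioblastoma line U87 carrying a dominant negative transgene of IRE1alpha (labelled IRE1.NCK DN), with U87ctrl cells carrying the empty plasmid, to look for genes of tumour invasion and blood vessel growth. Each group had 3 arrays, called IRE1dn arrays 1 to 3 and ctrl arrays 1 to 3 below. Both groups were grown for 16 h in DMEM with 10% FBS and glutamine, and the labels name no agent that causes ER stress. The labels give 1 clone for U87dn, speak of clones for U87ctrl without assigning them to arrays, do not name the promoter of the transgene, and do not state whether each replicate was its own culture. The p-values therefore rest on array-to-array spread that could be technical.

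The endoplasmic reticulum senses unfolded protein through IRE1alpha, PERK and ATF6. PERK phosphorylates the translation factor eIF2alpha, which slows protein synthesis in general while favouring translation of ATF4, and ATF4 then induces DDIT3, ATF3, TRIB3 and many genes of amino acid supply. The same route is entered through other eIF2alpha kinases on amino acid shortage, viral RNA or haem deficiency, and PPP1R15A and TRIB3 act in negative feedback upon it. IRE1alpha acts in a parallel arm by splicing XBP1. Because ATF4 is controlled largely at translation, the amount of its transcript does not measure the amount of its protein.

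Values are linear signal units, scaled by the submitters so that all 6 arrays had a trimmed mean of 100.03. Array medians were 18.99 to 21.03 units in IRE1dn and 18.45 to 19.20 in ctrl. Genes whose mean log2 signal over all 6 arrays was under the level of 13.0 units were left out of the gene comparison. It held 7178 genes with 1 probe set each. Fold changes are IRE1dn minus ctrl on the scale log2(signal + 1.75), which understates changes of dim genes. Adjusted p-values are limma's with the Benjamini-Hochberg method over all genes tested, two-sided, with a threshold of 0.05. Precision is limited by having 3 arrays in each group. All 10 members passed the filter, with 11 of their 12 probe sets above it. The glial line markers VIM, CD44 and TNC were bright in both groups, with TNC higher in IRE1dn (mean 1625 against 900 units; limma adjusted p = 0.00898). NES passed the filter but was dim, at means of 34.4 units in IRE1dn and 21.3 in ctrl. GFAP, S100B, SOX2, OLIG2 and FABP7 had group means of 0.311 to 5.26 units in IRE1dn and 0.241 to 16.4 in ctrl. None of the 5 endothelial or 4 measured leukocyte markers passed the filter, and their summed signals were 19.7 to 23.6 and 9.78 to 26.9 units in IRE1dn and 26.9 to 37.1 and 9.26 to 16.1 in ctrl, with none at exactly 0. Of the 3 measured neuronal markers SNAP25 and GAP43 passed, and their list summed to 253 to 310.4 units in IRE1dn and 123 to 419 in ctrl.

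The proximal promoter is where factors of this family are known to act on one another's genes. RefSeq (GRCh38.p14) promoter windows of 8 of the 10 members were read over the 250 bases before each start, 15 windows in all. No motif result is given for CEBPD or NUPR1, which have no window among these 15. Each was searched on both strands for 6 short motifs, chosen after the windows had been seen: TGATGNAA (the core of the composite element bound by ATF4 with a C/EBP partner), TGACGTCA (the cAMP response element, bound by CREB and ATF factors), TGANTCA (the AP-1 site), TTGCGCAA (the C/EBP palindrome), ACGTG (the hypoxia response core) and the ER stress response element. Shown are the windows of DDIT3, CEBPG, PPP1R15A and DDIT4, one for each kind of match found outside ATF4 and ATF3, with the match in capitals. They lie at chr12:57520515-57520764 (minus strand), chr19:33373863-33374112 (plus strand), chr19:48872171-48872420 (plus strand) and chr10:72273674-72273923 (plus strand).
DDIT3: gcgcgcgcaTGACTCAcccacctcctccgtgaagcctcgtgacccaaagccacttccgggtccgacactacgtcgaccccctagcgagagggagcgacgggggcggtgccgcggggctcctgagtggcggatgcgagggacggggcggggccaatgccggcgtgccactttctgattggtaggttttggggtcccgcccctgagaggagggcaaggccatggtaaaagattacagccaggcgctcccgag
CEBPG: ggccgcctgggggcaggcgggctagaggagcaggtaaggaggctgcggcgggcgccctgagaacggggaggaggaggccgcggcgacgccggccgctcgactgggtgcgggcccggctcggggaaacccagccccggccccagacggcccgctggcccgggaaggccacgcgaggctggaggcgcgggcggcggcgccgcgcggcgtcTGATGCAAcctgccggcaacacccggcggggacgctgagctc
PPP1R15A: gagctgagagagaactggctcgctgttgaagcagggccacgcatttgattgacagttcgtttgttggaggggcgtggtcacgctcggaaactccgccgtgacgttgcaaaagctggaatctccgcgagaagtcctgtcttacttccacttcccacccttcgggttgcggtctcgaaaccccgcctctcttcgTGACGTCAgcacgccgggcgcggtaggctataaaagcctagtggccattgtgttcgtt
DDIT4: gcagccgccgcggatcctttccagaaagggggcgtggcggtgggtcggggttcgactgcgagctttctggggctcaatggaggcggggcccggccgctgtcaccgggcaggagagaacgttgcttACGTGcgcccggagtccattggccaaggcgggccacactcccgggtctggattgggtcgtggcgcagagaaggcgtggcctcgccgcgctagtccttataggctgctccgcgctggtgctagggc

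In DDIT3 the AP-1 match begins 241 bases before the start, and the gene's other window, displaced by a few bases, holds the same match. In CEBPG the composite core TGATGCAA begins 42 bases before the start, in 1 of its 2 windows. In PPP1R15A the cAMP response element begins 58 bases before the start, and in DDIT4 the hypoxia response core begins 125 bases before it. ATF3 held the looser core TGATGGAA in 1 of 2 windows, 191 bases before the start, and both ATF4 windows held ACGTG on both strands, the copies overlapping. CEBPB and TRIB3 held none of the 6 in these windows. Of the 35116 windows in the RefSeq table, 3.14% held TGATGNAA, 1.65% TGACGTCA, 6.57% TGANTCA, 0.131% TTGCGCAA, 18.5% ACGTG and 0.0740% the ER stress response element. The last element and TTGCGCAA had no exact match in the 15 member windows. Near matches and sequence further upstream were not searched. A match is a run of letters, not a measured binding site.

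Across the 10 members, 6 fell in IRE1dn cells (ATF3, DDIT3, CEBPB, CEBPD, TRIB3 and NUPR1), 1 rose (DDIT4), and 3 did not pass the test (ATF4, CEBPG and PPP1R15A). Of all 7178 genes tested, 16.5% were called lower and 17.9% higher. The median log2 change of the members was -1.06, against 0.01 over all genes tested, and 9 of the 10 were lower in value. The 3 IRE1dn arrays lay below all 3 ctrl arrays for 7 members and above them for 1, where 24.2% and 26.0% of all genes did so. With array values from bulk RNA, fewer cells expressing a gene and less RNA per cell cannot be told apart. The count of members called lower was 3 without IRE1dn array 3, where the count over all genes was 707 in place of 1185. It was also 3 without ctrl array 2, where the count over all genes was 1056, and it was 8 without ctrl array 1, where that count was 1140. IRE1dn array 3 had a 3' to 5' signal ratio of 1.639 for ACTB, a measure of RNA integrity, against 1.088 and 1.210 on IRE1dn arrays 1 and 2 and 1.162 to 1.209 on the ctrl arrays. Its GAPDH ratio was 0.940, against 0.895 and 0.899 on the other IRE1dn arrays and 0.869 to 0.923 on the ctrl arrays, and the part of RNA integrity in the calls was not tested. The call of DDIT4 ended without any IRE1dn array or without ctrl array 1.

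**Figure D1:**
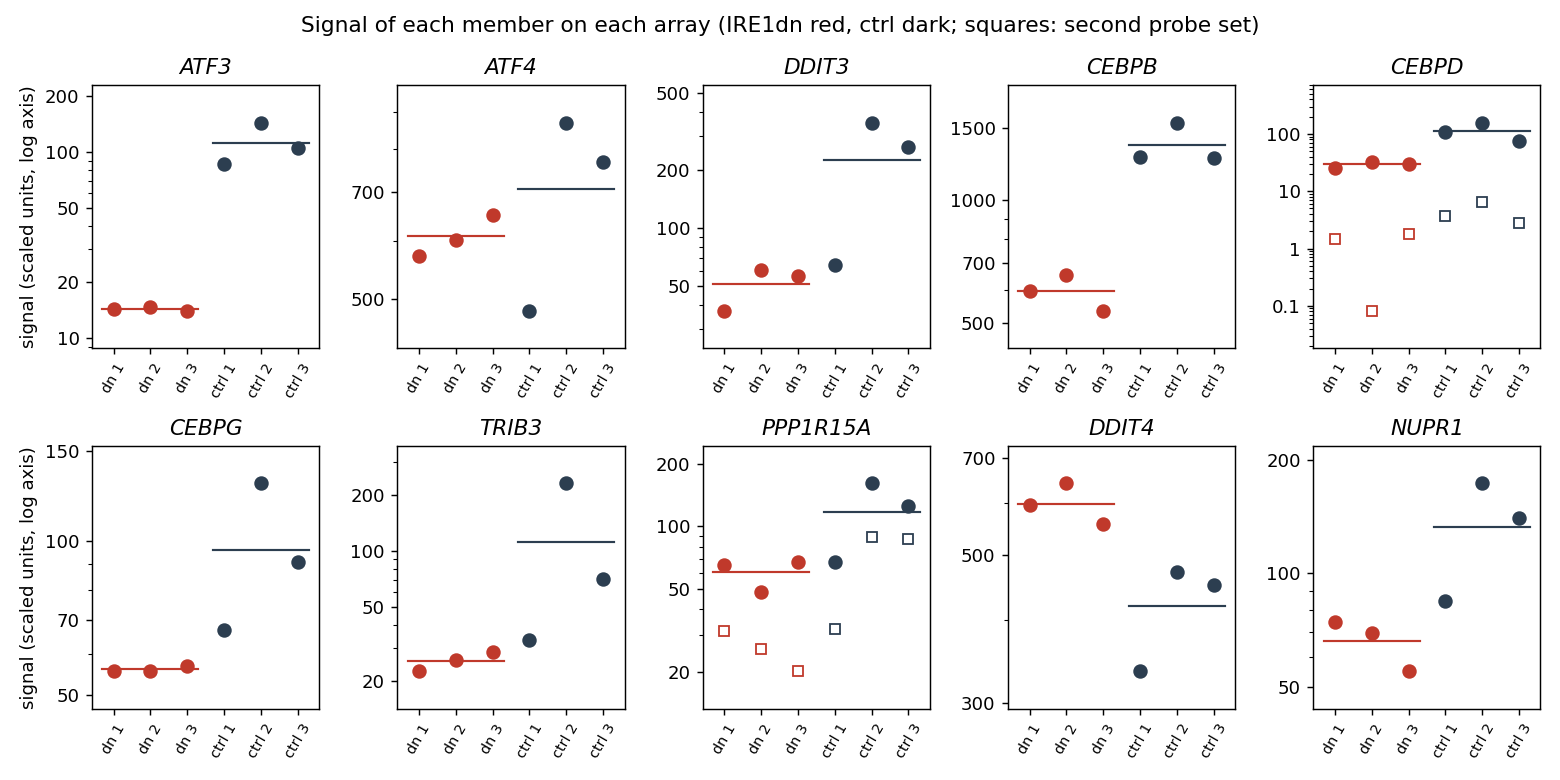
Signal of each member on every array, in scaled units on a log axis, with IRE1dn arrays in red on the left, ctrl arrays in dark on the right, group means as lines, and second probe sets of CEBPD and PPP1R15A as open squares. ATF3 lay at 14.1 to 14.7 units on the IRE1dn arrays and at 86.5 to 144 on the ctrl arrays, while for DDIT3 and TRIB3 ctrl array 1 lay close to the IRE1dn arrays.

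ATF4, the factor that carries the eIF2alpha signal into transcription, did not pass the test. Its probe set 200779_at read 573, 602 and 652 units on IRE1dn arrays 1 to 3, and 482, 871 and 769.7 on ctrl arrays 1 to 3. The IRE1dn arrays lay between ctrl array 1 and the other ctrl arrays, so the groups overlapped. The log2 change was -0.17 (SE 0.22, 95% interval -0.66 to 0.31; limma adjusted p = 0.564), an interval that leaves room for a modest fall or a small rise. Without ctrl array 1 it was -0.43, with a limma adjusted p of 0.0513. EIF2AK3, the gene of PERK itself, named after its values were seen, read 136, 111 and 99.2 units in IRE1dn and 82.0, 139 and 139 in ctrl (log2 change -0.03, SE 0.24; limma adjusted p = 0.946), and its sign changed with single arrays left out (-0.28 to 0.10).

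ATF3, a factor that can repress or activate stress and inflammatory genes, showed the largest change of the 10. Probe set 202672_s_at read 14.3, 14.7 and 14.1 units on the IRE1dn arrays and 86.5, 144 and 105 on the ctrl arrays. The lowest ctrl array lay well above every IRE1dn array. The change was -2.79 (SE 0.24, 95% interval -3.32 to -2.25; limma adjusted p = 8.9e-05), a 6.90-fold lower level on the fitted scale. Its size was above that of 98.6% of all genes tested. Against each ctrl array alone, the IRE1dn mean differed by -2.45 (array 1), -3.18 (array 2) and -2.73 (array 3). The IRE1dn arrays lay just above the filter level of 13.0 units, where background can be a large part of a signal.

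DDIT3, the CHOP factor that is best known for driving cell death in prolonged ER stress, fell as well, but with a wide spread among the controls. Probe set 209383_at read 37.3, 60.6 and 56.1 units on the IRE1dn arrays and 63.8, 351 and 262 on the ctrl arrays. The groups did not overlap, yet ctrl array 1 was only just above IRE1dn array 2. The change was -1.81 (SE 0.53, 95% interval -2.99 to -0.63; limma adjusted p = 0.0248). Set against single ctrl arrays, the IRE1dn mean differed by -0.33 (array 1), -2.76 (array 2) and -2.34 (array 3). The call ended when IRE1dn array 1 (limma adjusted p = 0.0860), IRE1dn array 3 (0.0693), ctrl array 2 (-1.34, 0.0767) or ctrl array 3 (0.0524) was left out, and the change was -2.55 without ctrl array 1.

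The C/EBP factors CEBPB and CEBPD, which act in inflammatory and acute phase transcription and in adipocyte differentiation, both fell, and their calls held with any single array left out. CEBPB (212501_at) read 599, 656 and 536 units on the IRE1dn arrays and 1271, 1548 and 1270.4 on the ctrl arrays, with every ctrl array far above every IRE1dn array. Its mean was 597 ± 60.1 units in IRE1dn and 1363 ± 159.8 in ctrl (SD, n = 3 each), and the change was -1.19 (SE 0.15, 95% interval -1.53 to -0.85; limma adjusted p = 0.000576). CEBPB was the member whose controls varied least on the log2 scale.

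CEBPD was read by probe set 203973_s_at at 25.7, 32.3 and 29.8 units in IRE1dn and 107, 158 and 74.9 in ctrl. The groups lay well apart, and ctrl array 3, not ctrl array 1, was the lowest control. The change was -1.83 (SE 0.27, 95% interval -2.45 to -1.22; limma adjusted p = 0.00131). The second CEBPD probe set, 213006_at, was under the filter level on all arrays, at 1.47, 0.0828 and 1.78 units in IRE1dn and 3.75, 6.49 and 2.84 in ctrl. It lay on the same side without overlap, and did not pass in the fit of all 22215 probe sets (-1.11, SE 0.38; limma adjusted p = 0.0850).

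CEBPG, a C/EBP protein without a strong activation domain of its own that pairs with ATF4, missed the threshold. Probe set 204203_at read 55.5, 55.7 and 57.0 units on the IRE1dn arrays, nearly the same value each time, and 66.9, 130 and 90.9 on the ctrl arrays. All ctrl arrays lay above all IRE1dn arrays. The change was -0.70 (SE 0.25, 95% interval -1.26 to -0.15; limma adjusted p = 0.0511), and it passed without ctrl array 1 (-0.93; limma adjusted p = 0.0140).

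TRIB3, a pseudokinase induced by ATF4 and CHOP that restrains AKT signalling, fell by 1.61 on the log2 scale. Probe set 218145_at read 22.6, 25.9 and 28.7 units in IRE1dn and 33.2, 231 and 70.5 in ctrl. The IRE1dn values were close together, and the 3 ctrl values were spread over a 6.96-fold range. The change had an SE of 0.55, a 95% interval of -2.84 to -0.39 and a limma adjusted p of 0.0455. The IRE1dn mean differed by -0.35 from ctrl array 1, by -3.09 from ctrl array 2 and by -1.40 from ctrl array 3. The call ended without ctrl array 2 (-0.88; limma adjusted p = 0.0767) or without any IRE1dn array (0.0997 to 0.117), and the change was -2.24 without ctrl array 1.

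PPP1R15A, the stress-induced phosphatase subunit that brings phosphorylated eIF2alpha back to its resting state, did not pass in either probe set. The brighter, 37028_at, read 65.5, 48.4 and 67.7 units in IRE1dn and 67.4, 161 and 125 in ctrl. Ctrl array 1 lay between IRE1dn arrays 1 and 3, so the groups overlapped there. The change was -0.87 (SE 0.31, 95% interval -1.56 to -0.18; limma adjusted p = 0.0523). The other probe set, 202014_at, read 31.6, 25.9 and 20.2 units in IRE1dn and 32.1, 89.5 and 87.1 in ctrl, without overlap but with ctrl array 1 next to IRE1dn array 1 (-1.25, SE 0.39; limma adjusted p = 0.0612 over 22215 probe sets). Without ctrl array 1 the gene passed, at -1.22 (limma adjusted p = 0.00661).

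NUPR1, a small chromatin-binding stress protein, fell by 0.94 on the log2 scale. Probe set 209230_s_at read 74.3, 69.6 and 54.9 units in IRE1dn and 84.6, 174 and 140.2 in ctrl. The groups did not overlap, and the lowest control was again ctrl array 1. The SE was 0.27, the 95% interval -1.54 to -0.33 and the limma adjusted p 0.0244. The IRE1dn mean differed by -0.36, -1.38 and -1.07 from ctrl arrays 1, 2 and 3. The call ended without IRE1dn array 2 (limma adjusted p = 0.0643), IRE1dn array 3 (0.101) or ctrl array 2 (0.0725).

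DDIT4, an inhibitor of mTORC1 that is induced by hypoxia and glucocorticoids as well as by ATF4, was the one member that rose. Probe set 202887_s_at read 594, 641 and 558 units on the IRE1dn arrays and 335, 471 and 451 on the ctrl arrays. Every IRE1dn array lay above every ctrl array. The change was 0.52 (SE 0.17, 95% interval 0.14 to 0.91; limma adjusted p = 0.0416), a 1.44-fold higher level. The limma adjusted p was 0.0846 to 0.160 without any one IRE1dn array and 0.0755 without ctrl array 1, at changes of 0.37 to 0.57.

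**Figure D2:**
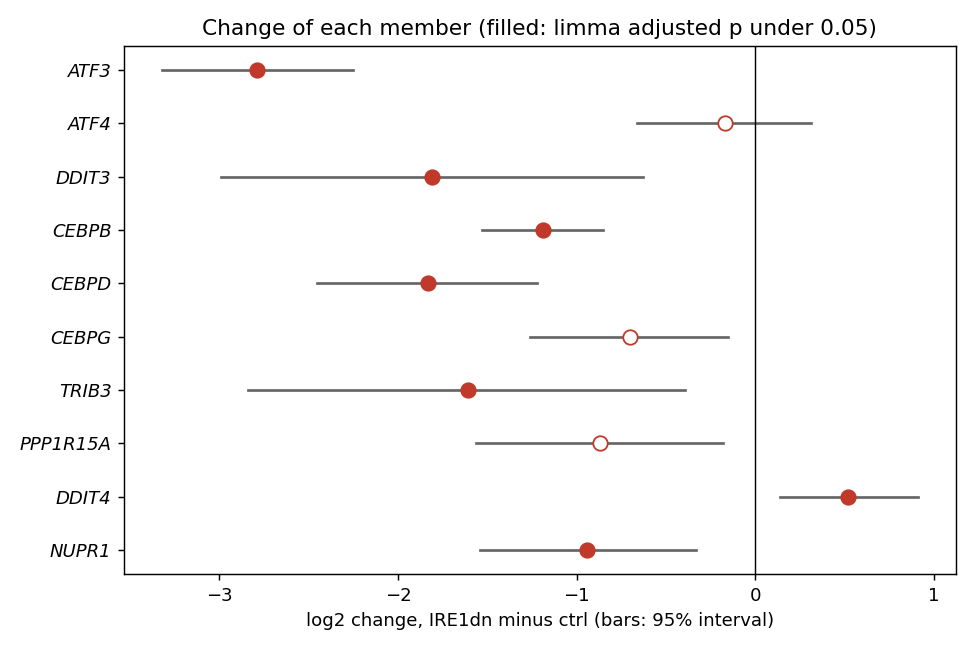
Log2 change of each member, IRE1dn minus ctrl, with its 95% interval from limma, filled where the adjusted p was under 0.05. ATF3 stood at -2.79, DDIT4 at 0.52, and the intervals of DDIT3 (-2.99 to -0.63) and TRIB3 (-2.84 to -0.39) were the widest.

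In the fit of all 22215 probe sets, 5 of the 12 member probe sets were called lower and 0 higher by limma (10 and 1 at an unadjusted p under 0.05), where 7.05% and 8.15% of all probe sets were. The 5 were those of ATF3, DDIT3 (limma adjusted p = 0.0493), CEBPB, CEBPD and NUPR1 (0.0452). IRE1dn arrays lay below all ctrl arrays for 9 of the 12 and above them for 1, against 15.2% and 18.4% of all probe sets. In that fit the calls of DDIT3 and NUPR1 ended when any array except ctrl array 1 was left out (limma adjusted p of 0.0866 to 0.172), and those of ATF3, CEBPB and the bright CEBPD probe set with none. Without ctrl array 1, 9 of the 12 were called lower, where 5.71% of all probe sets were, and those gained were CEBPG, TRIB3 and both PPP1R15A probe sets (limma adjusted p of 0.0066 to 0.0276). Any other array left out gave 3 lower, where 2.67% to 7.03% of all probe sets were.

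For 8 of the 10 members the ctrl arrays differed among themselves by more than the median gene tested. All 10 members had a larger log2 SD among the ctrl arrays than among the IRE1dn arrays, as did 70.9% of all genes tested. The median ctrl SD of the members was 0.50, against 0.29 over all genes, while their median IRE1dn SD was 0.15, against 0.17. TRIB3 (ctrl SD 1.38) and DDIT3 (1.30) lay above 99.2% and 98.9% of all genes in that spread, and PPP1R15A (0.64) above 90.4%. CEBPB and DDIT4 lay below the median, with ctrl SDs of 0.16 and 0.27 that exceeded 21.6% and 45.3% of genes.

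The order of the ctrl arrays was largely shared among the members. Ctrl array 2 was the highest ctrl array for all 10 members, against 34.8% of all genes tested, and ctrl array 1 the lowest for 8, against 40.8%. The lowest was ctrl array 3 for the other 2, against 32.8%: CEBPD, and CEBPB, whose ctrl arrays 1 and 3 were nearly equal. The median difference between ctrl arrays 2 and 1 was 0.89 on the log2 scale over the members, against 0.07 over all genes. It was 2.74 for TRIB3 and 2.43 for DDIT3, above 99.9% and 99.8% of genes, and 1.24 for PPP1R15A, 1.02 for NUPR1 and 0.94 for CEBPG, above 98.2%, 96.8% and 95.5%. Between ctrl arrays 3 and 1 the members' median difference was 0.55, against 0.05 over all genes. Members share the array on which they were measured, so these are not independent observations, and no test of them is given. The 3 ctrl arrays had 3' to 5' signal ratios of 1.209, 1.162 and 1.194 for ACTB and 0.923, 0.911 and 0.869 for GAPDH. Their part in the spread was not tested.

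**Figure D3:**
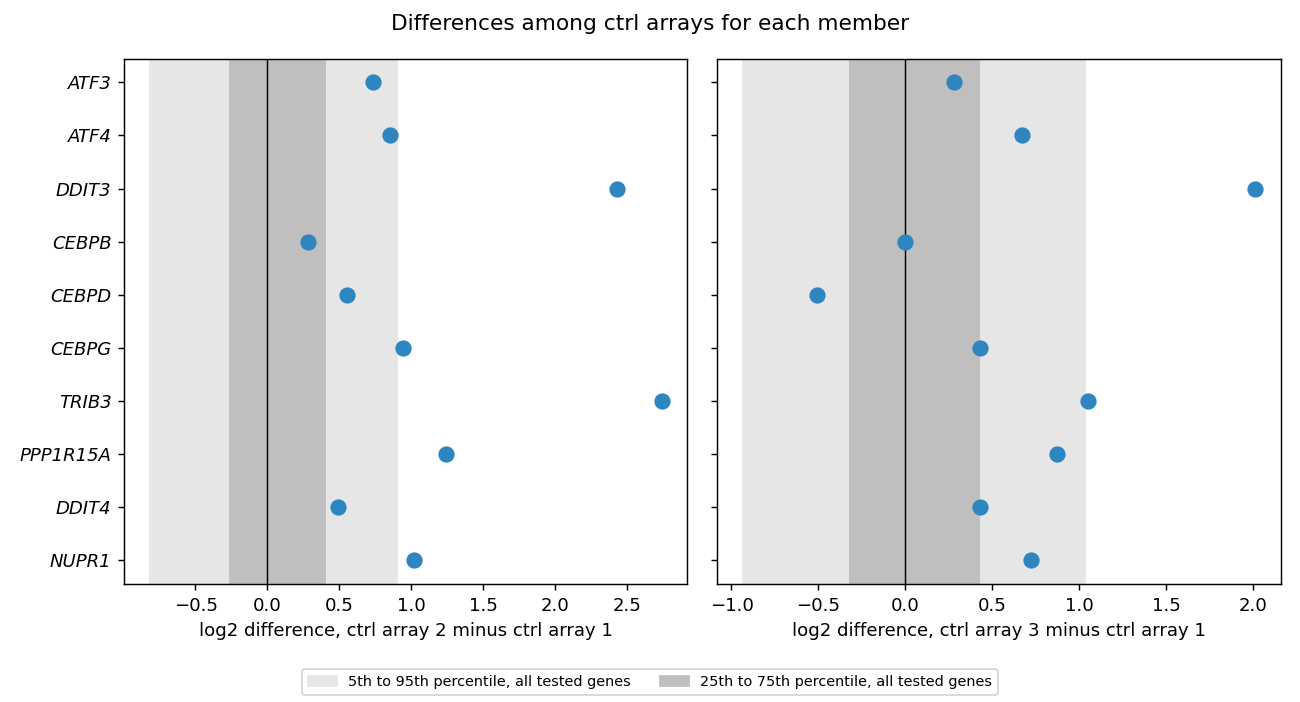
Log2 difference between ctrl arrays 2 and 1 (left) and between ctrl arrays 3 and 1 (right) for each member, with bands for the middle of all 7178 tested genes. TRIB3 (2.74) and DDIT3 (2.43) lay far right of the 95th percentile of 0.899 in the left panel, while CEBPB (0.28) lay inside the inner band.

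The members differed in how their IRE1dn values stood to ctrl array 1. For ATF3, CEBPB and CEBPD the log2 difference of the IRE1dn mean from a single ctrl array ran over -3.18 to -1.09. For CEBPG, TRIB3, PPP1R15A, DDIT3 and NUPR1 it was -0.36 to -0.17 from ctrl array 1, and -3.09 to -0.68 from the other two. All 3 IRE1dn arrays were below ctrl array 1 for 7 of the 10 members, where 37.9% of all genes were, and below ctrl arrays 2 and 3 for 9 each, where 40.4% and 39.0% were. These sets were described after the values were seen.

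**Figure D4:**
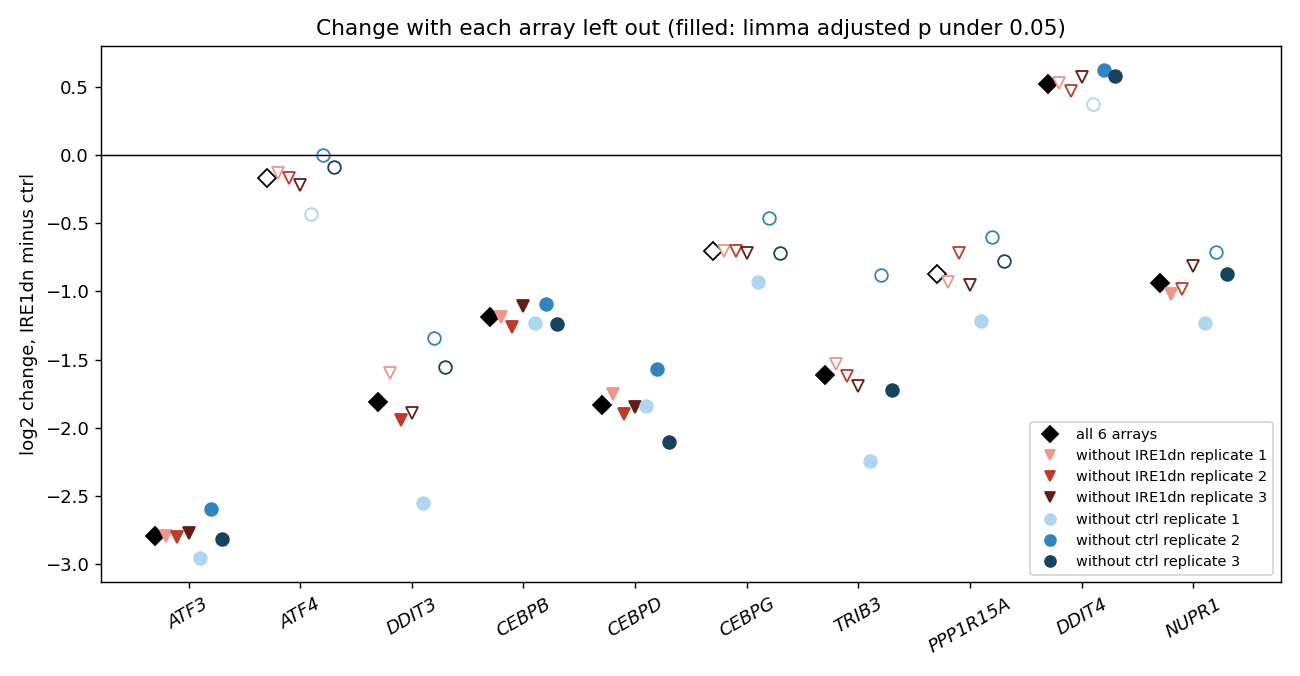
Log2 change of each member, IRE1dn minus ctrl, with all 6 arrays (diamonds) and with each IRE1dn array (triangles) or ctrl array (circles) left out, filled where the limma adjusted p was under 0.05. ATF3, CEBPB and CEBPD stayed filled throughout, while TRIB3 ran over -2.24 to -0.88 and DDIT3 over -2.55 to -1.34 depending on the ctrl array left out.

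Genes around the members were taken from 3 lists that exclude them, chosen with earlier results of these data known. Among the eIF2alpha kinases, eIF2 and eIF2B subunits, phosphatase subunits and their regulators, 18 of 21 were tested, and limma called 0 higher and 1 lower (1 and 3 at an unadjusted p under 0.05), which is 0% and 5.56% of those tested, against 17.9% and 16.5% of all genes. Their median log2 change was -0.15, against 0.01 over all genes. The one was EIF2B4, a subunit of the exchange factor that eIF2alpha phosphorylation inhibits. It read 96.9, 76.2 and 102 units in IRE1dn and 120.4, 149 and 157 in ctrl (-0.62, SE 0.20; limma adjusted p = 0.0352). Its call ended when any array except ctrl array 1 was left out (limma adjusted p of 0.0663 to 0.164). The list had 1 gene higher and 2 lower without ctrl array 3.

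Among other bZIP factors, 22 of 38 were tested, 2 rose (9.09%, against 17.9% of all genes) and 5 fell (22.7%, against 16.5%), with a median of -0.06. CREB3, a membrane-bound factor of the secretory pathway, fell to 152 ± 17.4 units in IRE1dn, against 390 ± 74.6 in ctrl (SD, n = 3 each; -1.34, SE 0.19; limma adjusted p = 0.00104). BATF3, a partner of JUN proteins, fell by 1.32 (SE 0.28; limma adjusted p = 0.00662), with 31.3, 37.8 and 35.2 units in IRE1dn and 67.2, 75.8 and 139.9 in ctrl. JUNB, an AP-1 subunit, fell by 1.01 (SE 0.27; limma adjusted p = 0.0188), a call that ended without IRE1dn array 1 (-0.75, 0.0629) or 2 (0.0526). NFIL3, a bZIP repressor, rose by 1.06 (SE 0.20; limma adjusted p = 0.00392), with 235, 275 and 282 units in IRE1dn and 97.8, 144 and 140.4 in ctrl. XBP1, the substrate of IRE1alpha and itself a bZIP factor, fell by 0.90 (SE 0.18; limma adjusted p = 0.00448), and ERN1, the gene of IRE1alpha, lay under the filter level at 9.89, 10.5 and 12.9 units in IRE1dn and 11.0, 14.0 and 11.9 in ctrl (-0.13, SE 0.32; limma adjusted p = 0.830 without the filter). The ERN1 probe set need not lie in the transgene, so it does not check the labels. Without IRE1dn array 2 or 3 only 1 factor of the list rose.

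Known targets of ATF4 and CHOP outside the members moved both ways: of 43 tested of 55, 7 rose (16.3%) and 9 fell (20.9%), near the 17.9% and 16.5% of all genes, with a median of -0.35. STC2, a secreted glycoprotein, rose most, with 430.3, 467 and 459 units in IRE1dn and 18.0, 65.8 and 88.3 in ctrl (3.20, SE 0.46; limma adjusted p = 0.00105; 2.54 without ctrl array 1). GDF15, a stress cytokine, read 20.4, 15.4 and 11.6 units in IRE1dn and 47.3, 158 and 179.6 in ctrl (-2.71, SE 0.45; limma adjusted p = 0.00223; -3.31 without ctrl array 1). GDF15 fell under the filter when the mean of its probe sets was taken, or when probe sets without possible cross-binding came first. The autophagy receptor SQSTM1 fell to 268 ± 18.5 units in IRE1dn, against 878 ± 241 in ctrl (SD, n = 3 each; -1.67, SE 0.22; limma adjusted p = 0.000625). NDRG1, also known as a hypoxia-induced gene, rose by 2.26 (SE 0.40; limma adjusted p = 0.00295), with 893, 890.1 and 981 units in IRE1dn and 140.3, 115 and 426 in ctrl. Ctrl array 2 was the highest ctrl array for 29 of the 43 (67.4%, against 34.8% of all genes) and ctrl array 1 the lowest for 27 (62.8%, against 40.8%). Without ctrl array 1, 17 of these targets were called lower, while the count over all genes was 1140 in place of 1185. Without any one IRE1dn array 4 were called higher, while that count over all genes was 748 to 944 in place of 1283.

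**Figure D5:**
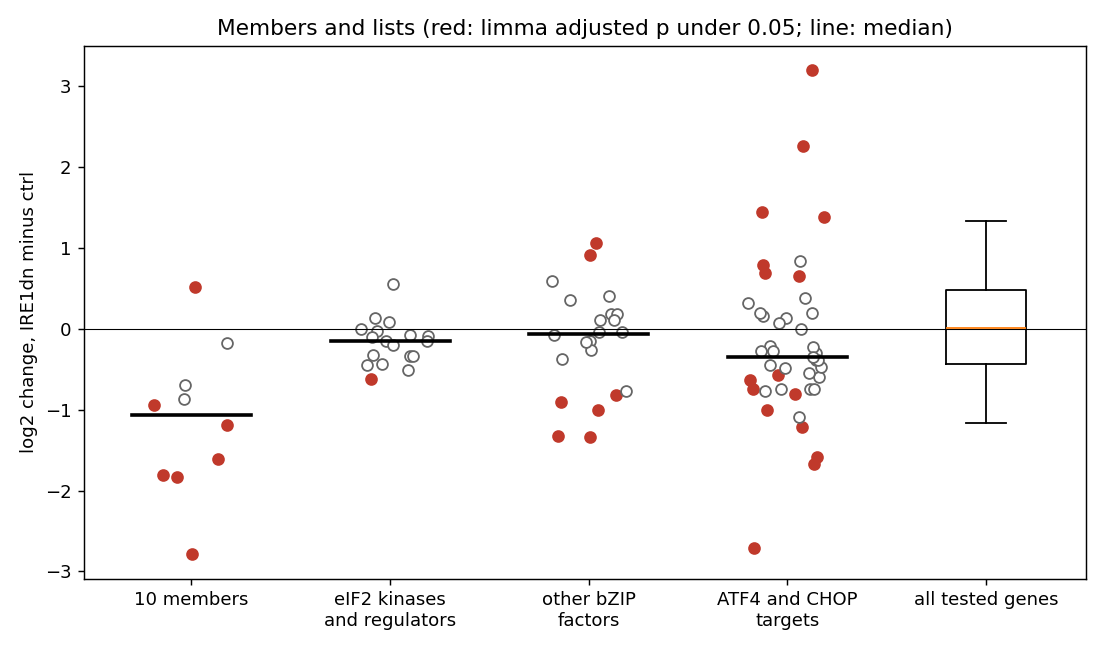
Log2 changes, IRE1dn minus ctrl, of the 10 members and of the 3 surrounding lists, red where the limma adjusted p was under 0.05, with medians as lines and all 7178 tested genes as a box (quartiles, whiskers at the 5th and 95th percentile). The members' median was -1.06, and the medians of the lists were -0.15, -0.06 and -0.35.

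The tested genes outside the members whose log2 signals followed ATF3, DDIT3 and TRIB3 most closely were ranked by Pearson's r over the 6 arrays, a measure dominated by the difference between groups where that is large. ATF3 was followed by CCN3, a matricellular protein (r = 0.999), the sulfotransferase UST (0.998) and the kinase RIPK2 (0.997), whose changes were -2.11, -1.91 and -1.72. DDIT3 was followed by the peptidase TPP2 (0.988), the glutamine transporter SLC38A1 (0.985) and the deubiquitinase USP3 (0.982), and SLC38A1 shared its spread, with 96.2, 101 and 130.3 units in IRE1dn and 126, 439 and 328 in ctrl. TPP2 and USP3 did not pass the test (-0.37 and -0.52; limma adjusted p = 0.168 and 0.0563). TRIB3 was followed by ASNS, asparagine synthetase, a standard ATF4 target (0.996), by NAB1, a corepressor of EGR factors (0.992), and by MET, the HGF receptor (0.987). NAB1 and MET did not pass the test (-0.51 and -0.40; limma adjusted p = 0.112 and 0.124). ASNS read 107, 119 and 121 units in IRE1dn and 152, 584 and 223 in ctrl (-1.22, SE 0.40; limma adjusted p = 0.0410), with ctrl array 2 again far above the rest. Its call ended without any one IRE1dn array (limma adjusted p of 0.0918 to 0.106), without the filter (0.0668) or without the intensity trend of the variance (0.0571), and its change was -0.66 without ctrl array 2. The call of SLC38A1 ended when any array except ctrl array 1 was left out (limma adjusted p of 0.0632 to 0.0941) or without the filter (0.0523). Among the members themselves, DDIT3 and TRIB3 correlated at 0.937, CEBPG and TRIB3 at 0.989, and ATF3 and CEBPB at 0.990. ATF3 and DDIT4 correlated at -0.770. All 6 arrays were scaled to the same trimmed mean.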

How the data were processed

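Total RNA of 6 samples was hybridised as biotin-labelled cRNA to Affymetrix arrays, per the labels' protocols. The authors deposited a linear signal intensity for each of 22277 probe sets, and the submitters' processing notes name GCOS 1.2. How probes were summarised and background was removed is not given in those notes. Platform annotation gave 1 gene symbol to 19064 probe sets, several to 1043 and none listed to 2108, and 62 were controls. Symbols were updated through gene identifiers of the RefSeq GRCh38.p14 table (19052 matched, 12 kept the platform's).

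Intensities were transformed as log2(signal + 1.75), the 20th percentile of all values being 1.75. The gene comparison took, for each of 11963 genes, its brightest probe set by mean log2 signal and tested the 7178 above the 40th percentile. The probe set comparison tested all 22215 that are not controls. Both used limma 3.58.1 in R 4.3.3 (lmFit, eBayes with an intensity trend, no covariate). The fit of the gene comparison was checked on simulated data with equal spread in both groups. That check does not cover genes whose ctrl arrays spread more than their IRE1dn arrays.

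Members and lists were chosen with earlier results of these data known. Genes named besides the members were ERN1, XBP1, up to 4 called genes a list with the largest changes, and the 3 most alike ATF3, DDIT3 and TRIB3. Alternatives changed the pseudocount, the filter, the scaling, the choice of probe set or the variance model, and included the replicate block and each array left out.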

Additional observations from a re-analysis of the deposited data

How the results depend on the processing

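Over 17 alternatives, 166 member changes were computed. 132 kept their side of the threshold, 22 calls ended, 12 were gained and 0 changed sign. ATF3 failed the 60th percentile filter and had no value there, nor did TRIB3 or CEBPD. CEBPD also had none where probe sets without possible cross-binding came first. The calls of ATF3, CEBPB and CEBPD held in every alternative that tested them. With 1 array left out, 3 to 8 members were called lower and 0 to 1 higher, 692 to 1260 and 748 to 1403 of all genes, 0 to 2 and 0 to 1 of the eIF2 list, 4 to 6 and 1 to 3 of the other bZIP factors, and 6 to 17 and 4 to 8 of the ATF4 and CHOP targets. No member was called higher (0) with equal medians, no filter, no intensity trend or the replicate block (DDIT4, limma adjusted p of 0.0530 to 0.0696, still at 0.46 to 0.52). Array weights gave 16 lower ATF4 and CHOP targets and, in the eIF2 list, 1 higher and 2 lower. That list had 1 higher with the 60th percentile filter or the mean of probe sets, 2 higher with probe sets without possible cross-binding first, and 0 lower with the replicate block. The 60th percentile filter left 3 other bZIP factors lower. TRIB3 missed the threshold with a pseudocount of 16 (-1.29, limma adjusted p = 0.0533), without a filter (0.0796) and without a trend (0.0596), and CEBPG and PPP1R15A passed under 5 settings each, beside the fit without ctrl array 1. In the probe set comparison DDIT3 missed the threshold with a pseudocount of 16 (limma adjusted p = 0.0791) and no trend (0.107), and NUPR1 with these (0.0639 and 0.0981) and the replicate block (0.0623). There 3 member probe sets were called lower with the first 2 of these settings, 4 with the block and 10 with array weights, against 5. EIF2B4 missed the threshold with the block (0.0546). EIF2AK3, never called, ran over -0.28 to 0.10 with 1 array left out. MET was 0.11 with the mean of its probe sets, against -0.40. SQSTM1 was -2.65 with the mean of its probe sets, against -1.67. Scaling moved the median change of all genes from 0.011 to -0.057 at most. Causes of these shifts were not tested. Same-numbered arrays deviated from their group means with correlations of -0.102, 0.0609 and 0.0247, and differently numbered ones with -0.121 to 0.0746. Whether same-numbered arrays were handled together is not known. The replicate block left 6 members called lower. Dim signals, such as the second CEBPD probe set, are limited by background that was not measured here.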
